A study of Homo sapiens with 15 samples.

Results

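The PI3K, AKT, mTOR and AMPK components are 47 named genes that encode the enzymes, adaptors and sensors of 1 nutrient and growth factor signalling network. They were picked by gene name from the 19966 genes of the expression table, and 45 of them passed the level filter used for testing. RNA-seq was made from 293T, a line of human embryonic kidney cells expressing SV40 large T antigen, in 3 libraries for each group. The first group was serum-starved for 12 h and carried a hairpin against SRSF1, an SR splicing factor (knockdown cells below). The second was wild-type and serum-starved for 12 h (starved cells), and the third was wild-type with 0 h of starvation (fed cells, kept in 10% fetal bovine serum). The labels name no non-targeting hairpin, so the hairpin as such and the loss of SRSF1 cannot be told apart, and they do not say whether the libraries came from separate cultures; p-values here cover only the spread among the sequenced libraries, which may be technical.

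Growth factor receptors activate PI3K, whose lipid product recruits AKT and its activating kinase PDK1 to the membrane. AKT inhibits the TSC complex, which otherwise keeps the GTPase RHEB from switching on mTORC1, the complex of mTOR with RPTOR that drives protein synthesis through the S6 kinases and the 4E-BPs. Amino acids act on the same complex through the Rag GTPases on the lysosome, which the Ragulator (LAMTOR) proteins anchor, GATOR1 switches off and FLCN with its FNIP partners switches on. AMPK, a trimer of alpha, beta and gamma subunits activated by STK11 when energy is short, opposes mTORC1 by acting on TSC2 and RPTOR. All of this is regulated largely at the protein level, by phosphorylation and localisation, and only mRNA was measured here.

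Levels are given in FPKM, normalized reads per kilobase of gene length and per 1e6 reads, computed with the authors' own library scaling kept. SRSF1 mRNA was at 30.5, 31.3 and 30.4 FPKM in knockdown cells, 42.6, 40.7 and 40.9 FPKM in starved cells, and 33.0, 31.7 and 31.5 FPKM in fed cells. The knockdown libraries were therefore below all starved libraries (log2 fold change -0.42 ± 0.07 SE, adjusted p = 0.000997) and lay just below all fed libraries, a difference that did not pass (-0.06 ± 0.07, adjusted p = 0.59). Between 11775367 and 15231651 reads were recovered in the 8 libraries where the counts could be rebuilt, and the 47 genes took 0.312% to 0.322% of the normalized counts of every library. Of 10 markers of kidney tubule and glomerulus only LRP2 averaged 1 FPKM or more, and UMOD was listed at 0 in every library. The summed level of 4 neuronal lineage markers was 83.7 to 110 FPKM in knockdown cells, 49.3 to 50.9 FPKM in starved cells and 67.0 to 72.7 FPKM in fed cells. NEFL, NEFM and ENO2 followed that order, whereas INA was at 9.29, 8.47 and 16.9 FPKM in knockdown cells, 13.9, 14.9 and 15.97 FPKM in starved cells, and 9.86 to 10.01 FPKM in fed cells. HBB, a globin, was at 48.7, 49.0 and 46.8 FPKM in knockdown cells and at 0 in all starved libraries. Knockdown replicate 3 had the highest share of mitochondrial reads, 5.56% against 3.27% to 4.54% in the other libraries. The part of these differences in the results below was not tested, and in bulk RNA fewer cells of a type and less RNA per cell cannot be told apart.

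The network was expressed across a wide range of levels. EIF4EBP1, a 4E-BP that blocks cap-dependent translation, averaged 138 FPKM over the 9 libraries, RRAGA 68.2 FPKM, RHEB 43.7 FPKM, EIF4EBP2 39.9 FPKM and LAMTOR4 36.4 FPKM. These 5 were the members at 30 FPKM or more, 17 reached 10 FPKM, and 28 lay from 1 to under 10 FPKM. The lipid kinase PIK3CA, at 1.05 FPKM, was among the lowest members tested. The order of neighbours is loose: EIF4EBP1 stood above RRAGA in every library, whereas RHEB, EIF4EBP2 and LAMTOR4 had overlapping libraries. Levels of different genes also rest on the gene lengths of the table, which lay within 10% of the GENCODE 29 exon lengths for 40 of the 47 genes. The table's length was 1.81 times the GENCODE length for PIK3CA, 6.02 times for CASTOR2, 2.44 times for PRKAG2, 2.19 times for GSK3B, 1.40 times for GSK3A, 1.14 times for PIK3R2 and 0.82 times for EIF4EBP1, so their levels against other genes are uncertain by those factors. Pooled over the 3 groups, the spread between libraries of a group had a median coefficient of variation of 10.1% over the tested members against 11.3% over all tested genes. Knockdown replicate 3 stood apart from its group. Over all tested genes it correlated with knockdown replicates 1 and 2 at 0.976 and 0.969, where other pairs within a group were at 0.987 to 0.996. Knockdown replicates 1 and 2 correlated with fed replicate 3 at 0.981 and 0.978.

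**Figure D1:**
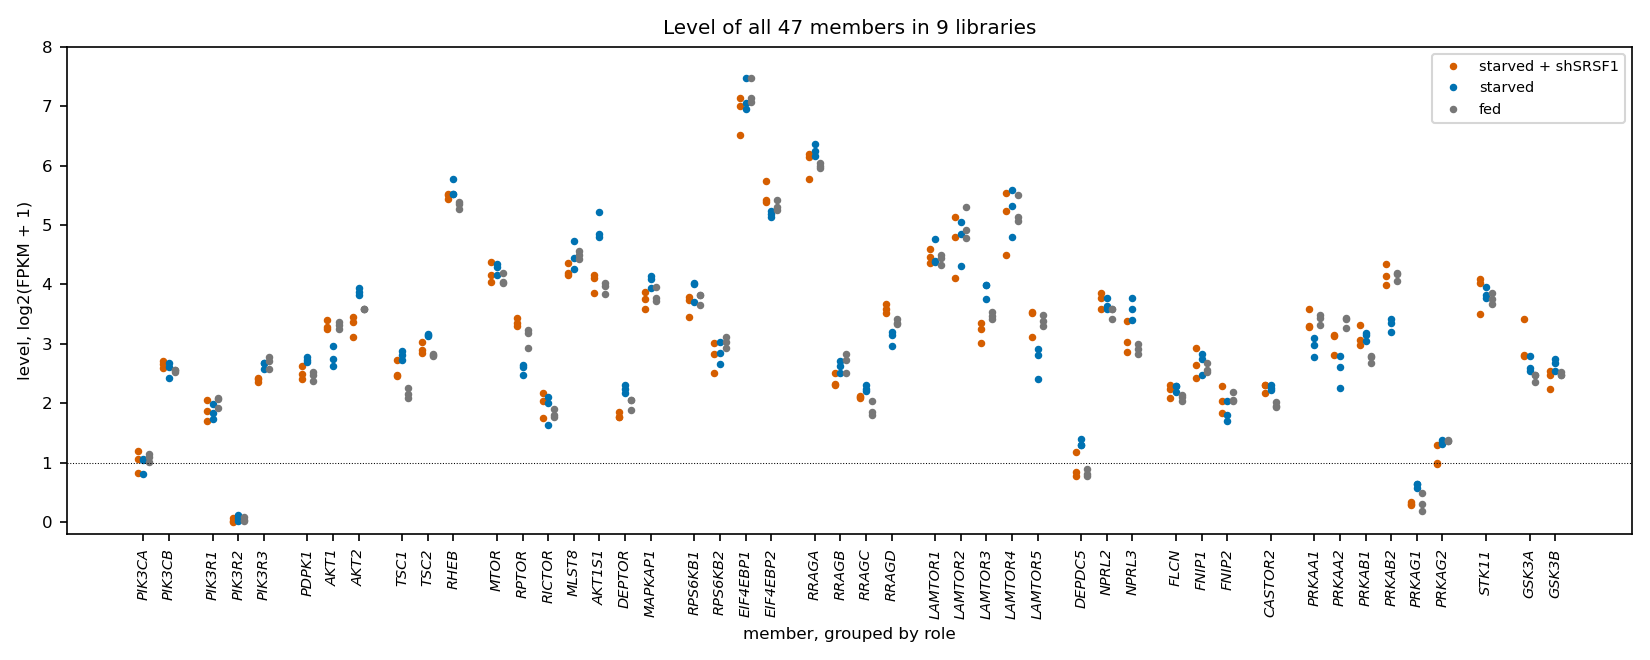
Level of each of the 47 genes, log2(FPKM + 1), in 9 libraries, with genes on the horizontal axis grouped by role and each point 1 library of knockdown (starved + shSRSF1), starved or fed cells. The dotted line marks 1 FPKM; EIF4EBP1, averaging 138 FPKM, is the highest member, and PIK3R2 and PRKAG1 lie below the line in all libraries.

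The 2 members below the filter were PIK3R2, a PI3K regulatory subunit, and PRKAG1, an AMPK gamma subunit. PIK3R2 had 0 to 3.38 normalized counts in knockdown cells, 1.102 to 6.01 in starved cells and 0.887 to 4.50 in fed cells. PRKAG1 had 12.4 to 15.04 normalized counts in knockdown cells, 27.5 to 31.4 in starved cells and 7.98 to 22.5 in fed cells. The whole span of each gene lies inside a second gene of the table on the same strand, a readthrough gene over PIK3R2 and an unnamed protein-coding gene over PRKAG1. Reads shared with an overlapping gene may go uncounted or be split, depending on counting rules that are not given in the sources used here, so neither low value shows that the gene is off. The second genes were themselves low, at 0.236 and 3.99 mean normalized counts. Of the 47 genes 21 overlap another gene of the table, 9 on the same strand.

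Starvation changed 20 of the 45 tested members, 13 higher and 7 lower in starved cells, with DEPDC5 among the 13 although the level filter fixed its direction (limma on log2(FPKM + 1), adjusted p under 0.05 over all genes tested). Over all 11123 tested genes 42.8% were called, 21.5% higher and 21.3% lower, so the members' 44.4% is close to the background. The members' median log2 fold change was 0.09, beside 0.03 over all tested genes. In knockdown against starved cells 18 of 45 were called, 8 higher and 10 lower (DEPDC5 again among them). That is 40.0% against a background of 46.4% (22.5% higher and 23.9% lower). The median was -0.07 for the members and -0.04 for all tested genes. The share of members called was thus near the background or below it in both comparisons. Both comparisons use the same 3 starved libraries, on opposite sides of the difference, so the 2 fold changes of a gene are not independent and are given side by side. On the TPM scale, where each library sums to 1e6 and the median of all genes moves by -0.10 in starved against fed cells, the calls of PDPK1, AKT2, TSC2, RHEB, DEPTOR, LAMTOR3, CASTOR2 and PRKAB1 in that comparison were lost (adjusted p from 0.0561 to 0.212), and so were those of PIK3R3, TSC2, MAPKAP1 and PRKAG2 in knockdown against starved cells (from 0.0523 to 0.179). In 21 members neither comparison passed: PIK3CA, PIK3CB, PIK3R1, MTOR, RICTOR, MLST8, RPS6KB1, RPS6KB2, EIF4EBP1, RRAGA, RRAGB, LAMTOR1, LAMTOR2, LAMTOR4, NPRL2, FLCN, FNIP1, FNIP2, STK11, GSK3A and GSK3B. The core kinase mTOR is among them, at 15.4, 16.9 and 19.8 FPKM in knockdown cells, 16.9, 18.7 and 19.3 FPKM in starved cells and 15.5, 17.3 and 15.3 FPKM in fed cells, with all 3 groups overlapping.

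**Figure D2:**
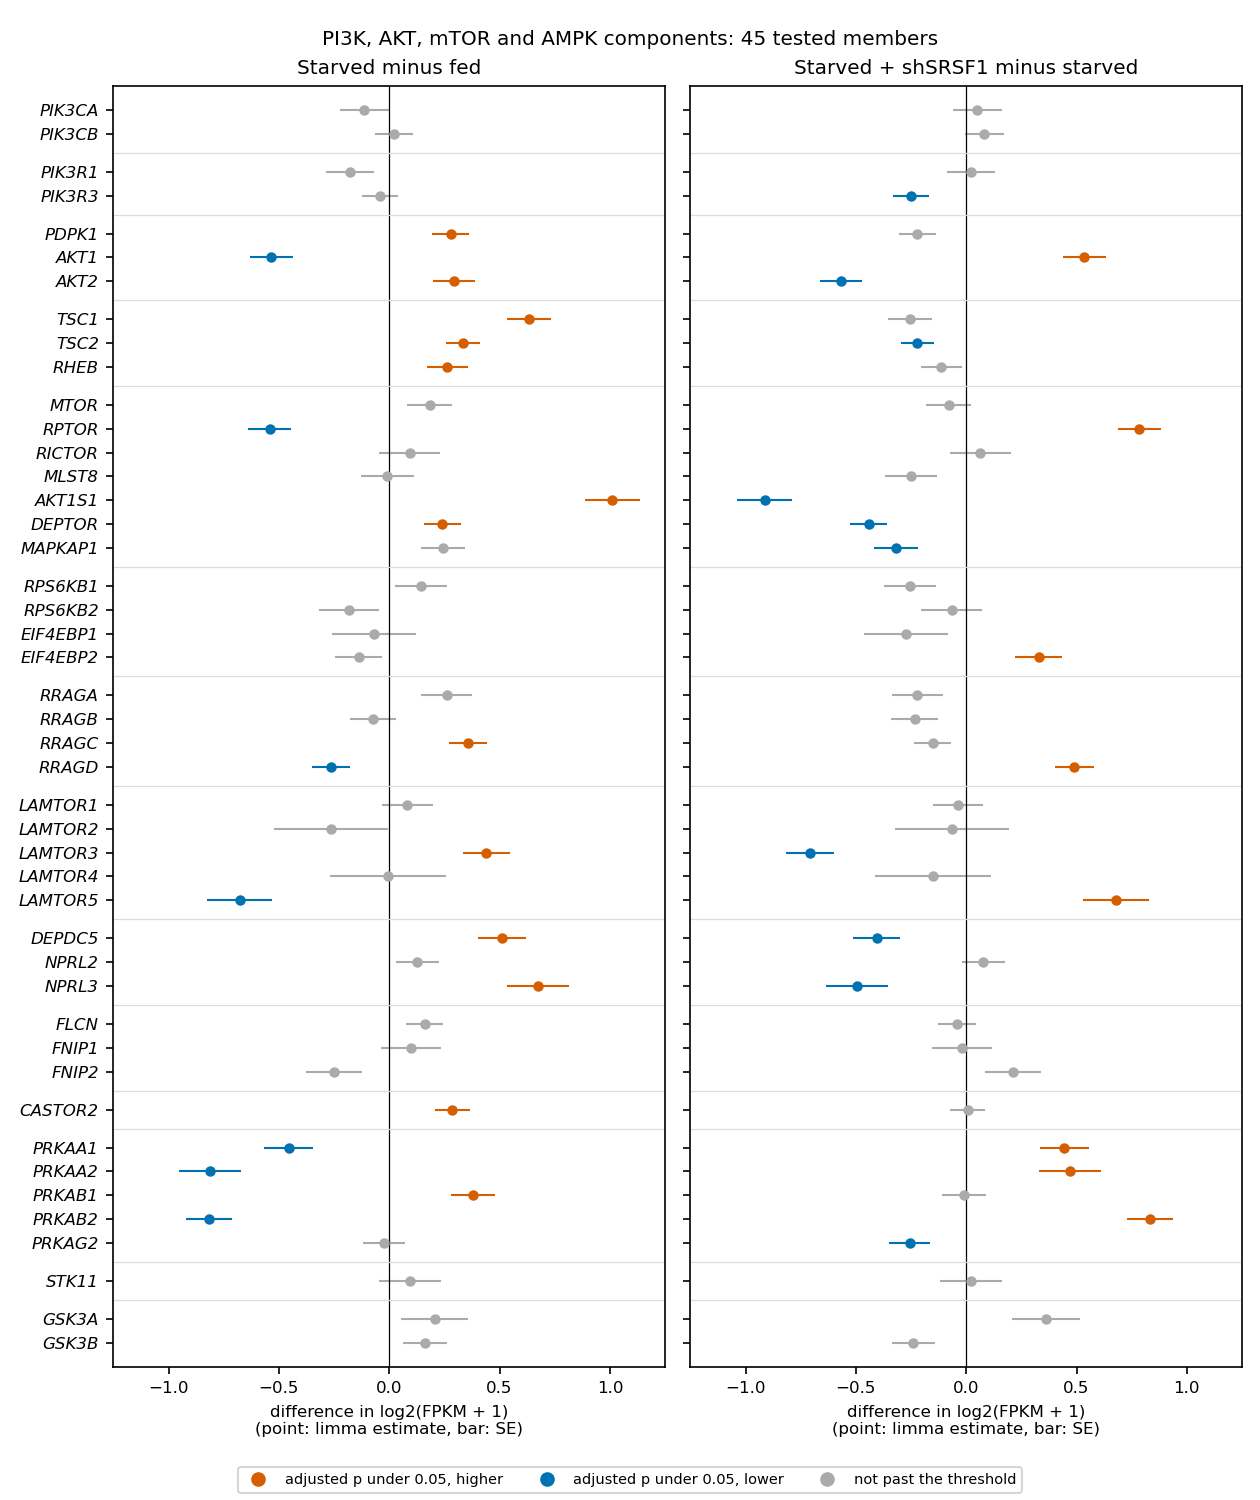
Log2 fold change with its standard error for the 45 tested members, grouped by role, for starved minus fed cells (left) and knockdown minus starved cells (right); orange points passed upward and blue points downward at an adjusted p under 0.05. AKT1S1 is at 1.01 on the left and -0.91 on the right, and PRKAB2 at -0.82 and 0.83; both panels share the starved libraries.

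Promoter sequences from RefSeq (GRCh38.p14; 250 bases before to 50 after a transcription start) were held for 40 members, in 61 windows. They were searched on both strands for CACGTG, the E-box at the core of the element bound by TFEB and related lysosomal regulators, for TGATGNAA, an ATF and C/EBP response element, and for GTAAACA, a forkhead element. CACGTG was in 11.5% of the member windows and 7.26% of all 35116 windows, in FNIP1, LAMTOR1, LAMTOR4, NPRL3, RRAGB, RRAGC and TSC2. Of these 7 members 3 were called higher in starved cells and 0 lower; of the 31 other tested members with a window 7 were called higher and 6 lower. Over all tested genes with a window, 28.5% of the 1166 with CACGTG were called higher and 16.04% lower in starved against fed cells, against 20.9% and 21.6% of the 7883 without it. In knockdown against starved cells 0 of the 7 members with CACGTG were called higher and 2 lower (all genes with it: 15.6% and 29.8%), and in knockdown against fed cells 0 and 0 (9.35% and 8.92%). TGATGNAA was in 3.28% of the member windows against 3.62% of all, and GTAAACA in 3.28% against 3.42%. The windows of the 3 CACGTG members called higher in starved cells are printed below, 5′ to 3′ on the gene's strand, with CACGTG in capitals at -112 in RRAGC, 26 in NPRL3 and -114 in TSC2 (the position of its first base from the start). In TSC2 the capitals run on because TGATGCAA, a match to TGATGNAA, overlaps it. These matches describe the letters and not binding.
RRAGC promoter (chr1:38859723-38860022, minus strand): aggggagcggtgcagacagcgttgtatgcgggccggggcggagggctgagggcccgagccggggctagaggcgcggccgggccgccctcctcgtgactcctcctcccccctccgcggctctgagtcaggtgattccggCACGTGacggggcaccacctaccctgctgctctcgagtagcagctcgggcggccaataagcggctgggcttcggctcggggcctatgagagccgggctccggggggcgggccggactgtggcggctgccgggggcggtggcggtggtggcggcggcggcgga
NPRL3 promoter (chr16:138624-138923, minus strand): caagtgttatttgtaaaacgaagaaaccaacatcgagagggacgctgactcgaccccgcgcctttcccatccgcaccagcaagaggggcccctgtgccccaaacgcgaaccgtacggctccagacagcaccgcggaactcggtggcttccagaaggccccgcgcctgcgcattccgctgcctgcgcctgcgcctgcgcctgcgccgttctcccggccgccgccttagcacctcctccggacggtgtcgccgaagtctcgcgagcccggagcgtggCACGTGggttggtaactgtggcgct
TSC2 promoter (chr16:2047735-2048034, plus strand): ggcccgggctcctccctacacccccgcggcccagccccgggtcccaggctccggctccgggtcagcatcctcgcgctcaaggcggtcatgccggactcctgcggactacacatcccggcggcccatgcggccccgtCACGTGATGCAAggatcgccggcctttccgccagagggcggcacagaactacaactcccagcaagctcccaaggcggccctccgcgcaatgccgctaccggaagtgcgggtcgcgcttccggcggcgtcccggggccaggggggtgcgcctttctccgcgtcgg

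Among the first steps of the network, AKT1 and AKT2 moved in opposite directions. AKT1 mRNA was at 8.49, 8.78 and 9.60 FPKM in knockdown cells, 5.16, 6.79 and 5.72 FPKM in starved cells, and 8.96, 8.50 and 9.35 FPKM in fed cells. All starved libraries lay below all others. AKT1 fell in starved against fed cells by 0.53 ± 0.10 SE on the log2 scale (adjusted p = 0.00161), and was higher in knockdown than in starved cells by 0.54 ± 0.10 (adjusted p = 0.00147). AKT2, the form best known for insulin-driven glucose uptake, was at 9.95, 9.32 and 7.65 FPKM in knockdown cells, 13.7, 14.4 and 13.1 FPKM in starved cells, and 10.97, 10.96 and 11.05 FPKM in fed cells. Here the starved libraries were the highest. AKT2 rose in starved against fed cells by 0.29 ± 0.09 (adjusted p = 0.0286) and fell in knockdown against starved cells by 0.57 ± 0.09 (adjusted p = 0.000832). The rise of AKT2 was lost when any of the 6 fed or starved libraries was left out (adjusted p from 0.0505 to 0.0797). PDPK1, which encodes PDK1, was at 5.88, 5.46 and 5.61 FPKM in starved cells and 4.74, 4.53 and 4.19 FPKM in fed cells (log2 fold change 0.28 ± 0.09, adjusted p = 0.023), a call that was lost without fed replicate 2 or 3 or starved replicate 1 or 3 (adjusted p from 0.0596 to 0.0954). Its knockdown libraries, at 4.62, 4.33 and 5.18 FPKM, did not pass against starved cells (adjusted p = 0.0543).

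Among the tested PI3K subunits 1 passed. The catalytic subunits PIK3CA and PIK3CB and the regulatory subunit PIK3R1 passed in neither comparison, with log2 fold changes from -0.18 to 0.08. PIK3R3, the p55-gamma regulatory subunit, was at 4.38, 4.32 and 4.13 FPKM in knockdown cells, 5.43, 5.41 and 4.99 FPKM in starved cells, and 5.86, 5.56 and 4.99 FPKM in fed cells. It fell in knockdown against starved cells by 0.25 ± 0.08 on the log2 scale (adjusted p = 0.0279). That call was lost without starved replicate 1 or 2 or knockdown replicate 1 or 2 (adjusted p from 0.0527 to 0.0833).

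Both subunits of the TSC complex, the brake on RHEB, were higher in starved cells. TSC1 mRNA was at 4.53, 4.47 and 5.63 FPKM in knockdown cells, 5.99, 5.61 and 6.36 FPKM in starved cells, and 3.47, 3.80 and 3.24 FPKM in fed cells. It rose in starved against fed cells by 0.63 ± 0.10 (adjusted p = 0.000582), while the knockdown libraries lay between and overlapped the starved ones (log2 fold change -0.25 ± 0.10, adjusted p = 0.0554). TSC2, the GTPase-activating subunit whose promoter is printed above, was at 6.20, 6.48 and 7.15 FPKM in knockdown cells, 7.77, 7.98 and 7.82 FPKM in starved cells, and 5.91, 6.12 and 6.04 FPKM in fed cells. The 3 groups of TSC2 did not overlap. TSC2 rose in starved against fed cells by 0.33 ± 0.08 (adjusted p = 0.00553) and fell in knockdown against starved cells by 0.22 ± 0.08 (adjusted p = 0.0369). The fall was lost on leaving out any single library except knockdown replicate 3 (adjusted p from 0.0589 to 0.123). PKD1, which overlaps 1.89% of the TSC2 span on the opposite strand, also rose in starved cells (0.33 ± 0.11, adjusted p = 0.0346), and strand use in the counting is not given in the sources used here. RHEB, the GTPase they act on, was at 44.7, 53.5 and 44.8 FPKM in starved cells and 39.9, 37.5 and 41.0 FPKM in fed cells. Its rise (0.26 ± 0.09, adjusted p = 0.0408) was lost without any 1 of the fed libraries, starved replicate 2 or 3, or knockdown replicate 1 or 2 (adjusted p from 0.0509 to 0.144).

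Within the mTOR complexes the mTORC1 adaptor and its inhibitors went in opposite directions. RPTOR, which presents substrates to mTORC1, was at 8.85, 9.76 and 9.22 FPKM in knockdown cells, 4.57, 5.27 and 5.08 FPKM in starved cells, and 6.64, 8.405 and 8.09 FPKM in fed cells. No group overlapped another. RPTOR fell in starved against fed cells by 0.54 ± 0.10 on the log2 scale (adjusted p = 0.00141) and was 1.87-fold higher in knockdown than in starved cells by mean FPKM (log2 fold change 0.78 ± 0.10, adjusted p = 0.000139). AKT1S1, which encodes PRAS40, the mTORC1 inhibitor that AKT releases, was at 16.3, 16.8 and 13.5 FPKM in knockdown cells, 26.9, 36.2 and 27.8 FPKM in starved cells, and 13.3, 14.7 and 15.2 FPKM in fed cells. The starved libraries stood apart, and the knockdown and fed libraries overlapped. AKT1S1 rose 2.10-fold in starved against fed cells (1.01 ± 0.12, adjusted p = 0.00014), the largest rise among the members, and its mean in knockdown cells was 0.513 times that in starved cells (-0.91 ± 0.12, adjusted p = 0.000236).

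AKT1S1 overlaps a neighbouring gene, TBC1D17, which covers 10.98% of its span on the opposite strand. TBC1D17 moved as AKT1S1 did, by 0.62 ± 0.09 in starved against fed cells (adjusted p = 0.000432) and -0.50 ± 0.09 in knockdown against starved cells (adjusted p = 0.00143). Without a known strand setting, reads of AKT1S1 and TBC1D17 over their overlap cannot be told apart.

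The remaining mTOR partners had smaller fold changes. DEPTOR, an inhibitor in both mTOR complexes, was at 2.40, 2.61 and 2.41 FPKM in knockdown cells, 3.74, 3.93 and 3.49 FPKM in starved cells, and 2.68, 3.16 and 3.16 FPKM in fed cells. Its fall in knockdown against starved cells, by 0.44 ± 0.08 on the log2 scale, passed (adjusted p = 0.00178). Its rise in starved against fed cells (0.24 ± 0.08, adjusted p = 0.0408) was lost without any 1 of the fed or starved libraries or knockdown replicate 1 (adjusted p from 0.0554 to 0.161). MAPKAP1, the mTORC2 subunit SIN1, was at 11.1, 12.5 and 13.6 FPKM in knockdown cells and 14.4, 16.7 and 16.0 FPKM in starved cells, and fell by 0.32 ± 0.10 (adjusted p = 0.0252). That call was lost without starved replicate 2 or 3 or knockdown replicate 1 (adjusted p from 0.0683 to 0.0958). RICTOR, the defining subunit of mTORC2, and MLST8, shared by both complexes, passed in neither comparison.

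Of the mTORC1 substrates 1 passed. EIF4EBP2 was at 41.9, 40.8 and 52.6 FPKM in knockdown cells, 34.2, 36.9 and 35.4 FPKM in starved cells, and 37.2, 41.7 and 38.7 FPKM in fed cells. It rose in knockdown against starved cells by 0.33 ± 0.11 (adjusted p = 0.0263), with knockdown replicate 3 the highest library, and the call was lost without starved replicate 1 or 3 (adjusted p from 0.0688 to 0.0822). EIF4EBP1 ranged widely, at 128, 141 and 90.2 FPKM in knockdown cells, 133, 176 and 123 FPKM in starved cells, and 140, 134 and 177 FPKM in fed cells. The S6 kinases RPS6KB1 and RPS6KB2 had overlapping groups in both comparisons, with log2 fold changes from -0.25 to 0.14.

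The lysosomal platform was split gene by gene. LAMTOR3, a scaffold subunit of Ragulator that also binds MEK1, was at 8.53, 7.05 and 9.25 FPKM in knockdown cells, 14.9, 12.5 and 14.96 FPKM in starved cells, and 10.7, 10.0 and 9.64 FPKM in fed cells. It rose in starved against fed cells by 0.44 ± 0.11 (adjusted p = 0.00782) and fell in knockdown against starved cells by 0.71 ± 0.11 (adjusted p = 0.000472). LAMTOR5, another subunit of the same pentamer, was at 10.5, 10.6 and 7.62 FPKM in knockdown cells, 6.06, 6.50 and 4.31 FPKM in starved cells, and 9.45, 8.85 and 10.2 FPKM in fed cells. Its starved libraries were the lowest, where those of LAMTOR3 were the highest. LAMTOR5 fell in starved against fed cells by 0.68 ± 0.15 (adjusted p = 0.00445) and was higher in knockdown than in starved cells by 0.68 ± 0.15 (adjusted p = 0.0041). LAMTOR1, LAMTOR2 and LAMTOR4 passed in neither comparison. LAMTOR2 and LAMTOR4 were also the tested members whose libraries varied most: LAMTOR4 was at 36.6, 45.3 and 21.5 FPKM in knockdown cells, 38.8, 47.4 and 26.8 FPKM in starved cells, and 34.2, 32.7 and 44.6 FPKM in fed cells, and replicate 3 was the lowest library of both genes in knockdown and in starved cells.

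The Rag GTPases work as pairs of RagA or RagB with RagC or RagD, and the second partners differed. RRAGD was at 11.1, 10.4 and 11.8 FPKM in knockdown cells, 7.83, 6.82 and 8.21 FPKM in starved cells, and 9.14, 9.69 and 9.17 FPKM in fed cells, with no overlap between groups. It was higher in knockdown than in starved cells by 0.49 ± 0.09 (adjusted p = 0.00118) and fell in starved against fed cells by 0.26 ± 0.09 (adjusted p = 0.0313). The fall was lost without any 1 of the fed libraries or without starved replicate 1 or 2 (adjusted p from 0.0562 to 0.109). RRAGC, with its promoter above, was at 3.34, 3.29 and 3.23 FPKM in knockdown cells, 3.74, 3.92 and 3.63 FPKM in starved cells, and 2.596, 2.48 and 3.10 FPKM in fed cells. RRAGC rose in starved against fed cells by 0.36 ± 0.08 (adjusted p = 0.00664) and did not pass in knockdown against starved cells (-0.15 ± 0.08, adjusted p = 0.166). RRAGA, the most abundant of the 4, and RRAGB passed in neither.

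In GATOR1, the complex that turns RagA and RagB off when amino acids run short, NPRL3 was higher in starved cells. NPRL3 was at 6.28, 7.14 and 9.49 FPKM in knockdown cells, 9.57, 12.7 and 10.96 FPKM in starved cells, and 6.09, 6.53 and 6.997 FPKM in fed cells. It rose in starved against fed cells by 0.67 ± 0.14 (adjusted p = 0.00314) and fell in knockdown against starved cells by 0.49 ± 0.14 (adjusted p = 0.0148), with the highest knockdown library, 9.49 FPKM, just below the lowest starved one. The fall was lost without starved replicate 2 or knockdown replicate 1 (adjusted p = 0.0501 and 0.0579). DEPDC5, another subunit of GATOR1, was at 0.787, 0.710 and 1.26 FPKM in knockdown cells, 1.47, 1.46 and 1.64 FPKM in starved cells, and 0.844, 0.712 and 0.755 FPKM in fed cells. It passed the level filter only through the starved libraries and 1 knockdown library, so it had to be higher there, and its values are given as a description only. NPRL2, FLCN, FNIP1 and FNIP2 passed in neither comparison. CASTOR2, a relative of the arginine sensor CASTOR1, was at 3.66, 3.92 and 3.76 FPKM in starved cells and 2.83, 3.07 and 2.86 FPKM in fed cells, and rose by 0.29 ± 0.08 (adjusted p = 0.014). The rise of CASTOR2 was lost without fed replicate 1 or 3 (adjusted p = 0.0533 and 0.0527).

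In AMPK 3 of the 5 tested subunits fell and 1 rose in starved against fed cells. Over all tested genes 21.3% were called lower and 21.5% higher, and the subunits were not tested as a set. PRKAA1, the catalytic alpha-1 subunit, was at 8.78, 8.90 and 11.1 FPKM in knockdown cells, 7.55, 5.87 and 6.88 FPKM in starved cells, and 9.75, 10.2 and 8.96 FPKM in fed cells. It fell in starved against fed cells by 0.46 ± 0.11 (adjusted p = 0.00785) and was higher in knockdown than in starved cells by 0.45 ± 0.11 (adjusted p = 0.00825). PRKAA2, the alpha-2 subunit, was at 7.85, 6.05 and 7.76 FPKM in knockdown cells, 5.95, 3.80 and 5.14 FPKM in starved cells, and 9.65, 9.78 and 8.66 FPKM in fed cells. In both alpha genes the starved libraries were the lowest. PRKAA2 fell in starved against fed cells by 0.81 ± 0.14 (adjusted p = 0.00104) and was higher in knockdown than in starved cells by 0.47 ± 0.14 (adjusted p = 0.0183). That second call was lost without starved replicate 2 or knockdown replicate 1 (adjusted p = 0.0524 and 0.0635).

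The beta subunits, which hold the trimer together and bind glycogen, diverged. PRKAB2 was at 16.7, 14.9 and 19.3 FPKM in knockdown cells, 9.72, 8.23 and 9.17 FPKM in starved cells, and 17.4, 17.0 and 15.6 FPKM in fed cells. The starved mean was 0.543 times the fed one (-0.82 ± 0.10, adjusted p = 0.000172), and the knockdown mean 1.88 times the starved one (0.83 ± 0.10, adjusted p = 0.000139). PRKAB1 was at 6.85, 7.35 and 8.99 FPKM in knockdown cells, 7.30, 8.09 and 7.86 FPKM in starved cells, and 5.88, 5.38 and 5.92 FPKM in fed cells. PRKAB1 rose in starved against fed cells by 0.38 ± 0.10 (adjusted p = 0.0113; 0.0506 without fed replicate 2), and its knockdown and starved libraries overlapped (adjusted p = 0.945). PRKAG2, a gamma subunit that binds AMP and ATP, was at 0.975, 1.001 and 1.46 FPKM in knockdown cells, 1.55, 1.48 and 1.62 FPKM in starved cells, and 1.62, 1.58 and 1.57 FPKM in fed cells. Its fall in knockdown against starved cells (-0.26 ± 0.09, adjusted p = 0.0467) was lost on leaving out any single library except knockdown replicate 3 (adjusted p from 0.0642 to 0.151). STK11, the kinase upstream of AMPK, had overlapping groups throughout, at 10.3 to 16.1 FPKM over the 9 libraries. GSK3A and GSK3B, kinases that AKT inhibits, passed in neither comparison, though each passed in knockdown against starved cells under some alternatives.

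**Figure D3:**
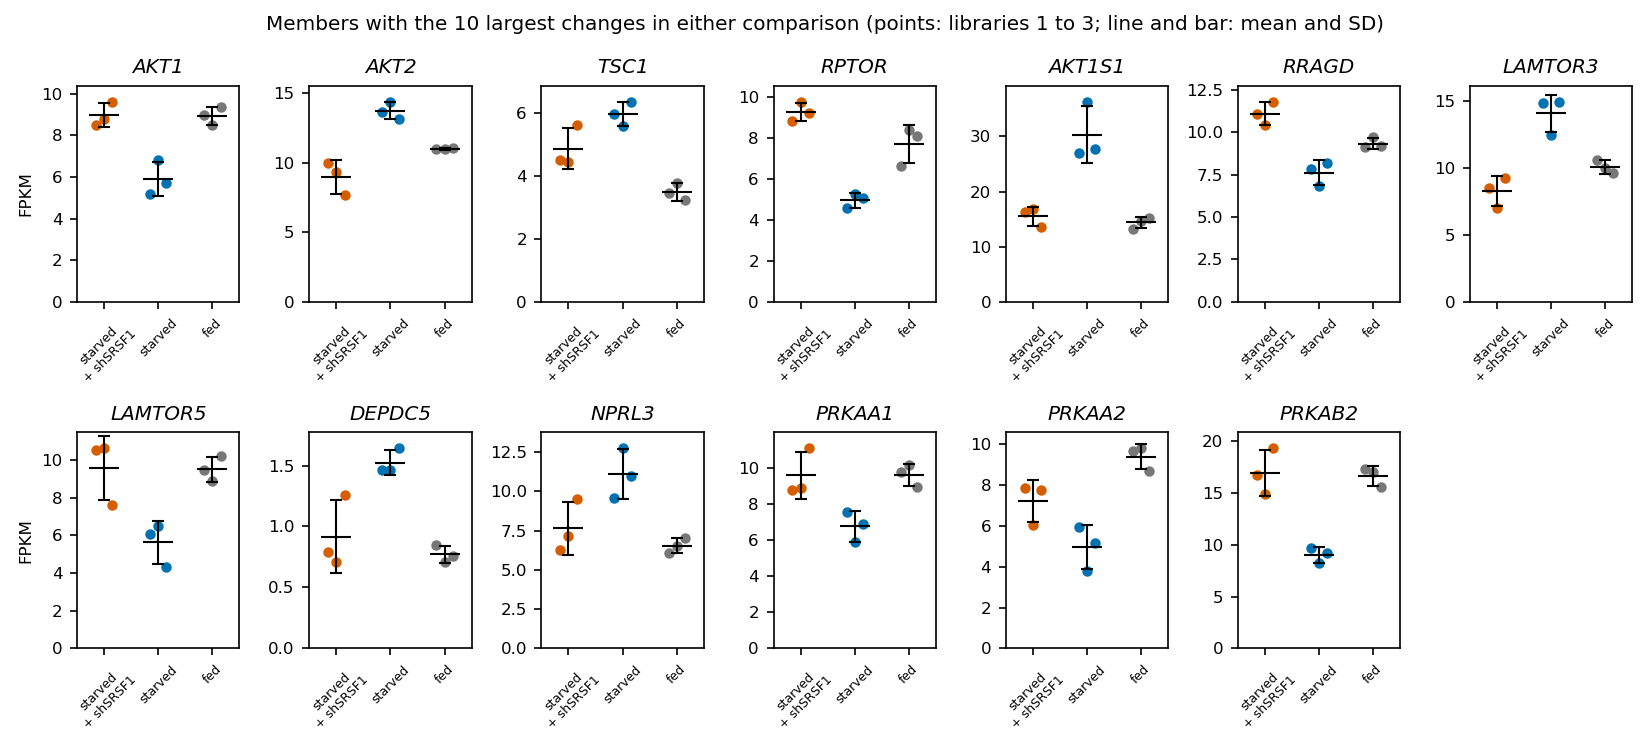
FPKM in each library (points), with the mean and SD of 3 libraries (line and bar), for the 13 members with the 10 largest called changes in either comparison; knockdown (starved + shSRSF1), starved and fed cells run from left to right and each vertical axis starts at 0. Starved libraries are lowest for AKT1, RPTOR, RRAGD, LAMTOR5, PRKAA1, PRKAA2 and PRKAB2 and highest for AKT2, AKT1S1, LAMTOR3, DEPDC5 and NPRL3. The level filter fixed the direction of DEPDC5.

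Because several members are paralogs that fill the same position in a complex, the share of each in the summed FPKM of its family was computed within each library, a ratio that library scaling does not alter. The groups did not overlap in 6 of 12 families for starved against fed cells and in 7 of 12 for knockdown against starved cells. Over all tested genes the FPKM of 59.2% and 51.0% did not overlap, but these are single genes, and no background of shares was computed. Both family counts include AMPK gamma, whose share rests on PRKAG1, a gene below the level filter. With 3 libraries a group the exact two-sided permutation test cannot go below p = 0.1, so these are descriptions. AKT1 made up 50.1% of the AKT1 and AKT2 sum in knockdown cells, 29.9% in starved cells and 44.8% in fed cells, with no overlap between any groups. PRKAB1 made up 31.3% of the AMPK beta sum in knockdown cells, 46.2% in starved cells and 25.6% in fed cells, again with no overlap. RRAGC made up 22.9% of the RagC and RagD sum in knockdown cells, 33.2% in starved cells and 22.6% in fed cells, and its knockdown and fed libraries overlapped. Relative to fed cells, the share in starved cells fell by 14.9 percentage points for AKT1 and was higher by 20.6 points for PRKAB1 and 10.6 points for RRAGC. The AMPK alpha subunits shifted less: PRKAA1 held 57.0% in knockdown cells, 58.0% in starved cells and 50.7% in fed cells, with the first 2 groups overlapping. FNIP1 held 62.8% of the FNIP sum in knockdown cells, 67.6% in starved cells and 60.4% in fed cells. EIF4EBP1 held 72.04% of the 4E-BP sum in knockdown cells, 79.96% in starved cells and 79.1% in fed cells. Its knockdown libraries were at 75.4%, 77.5% and 63.2%, so replicate 3 stood apart. The starved libraries were at 77.6% to 82.7%, and the fed libraries, at 76.2% to 82.1%, overlapped the knockdown ones. GSK3A held 61.8% in knockdown cells, 49.8% in starved cells and 48.9% in fed cells, where the table's gene lengths make the size of the share uncertain but not which group is higher.

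**Figure D4:**
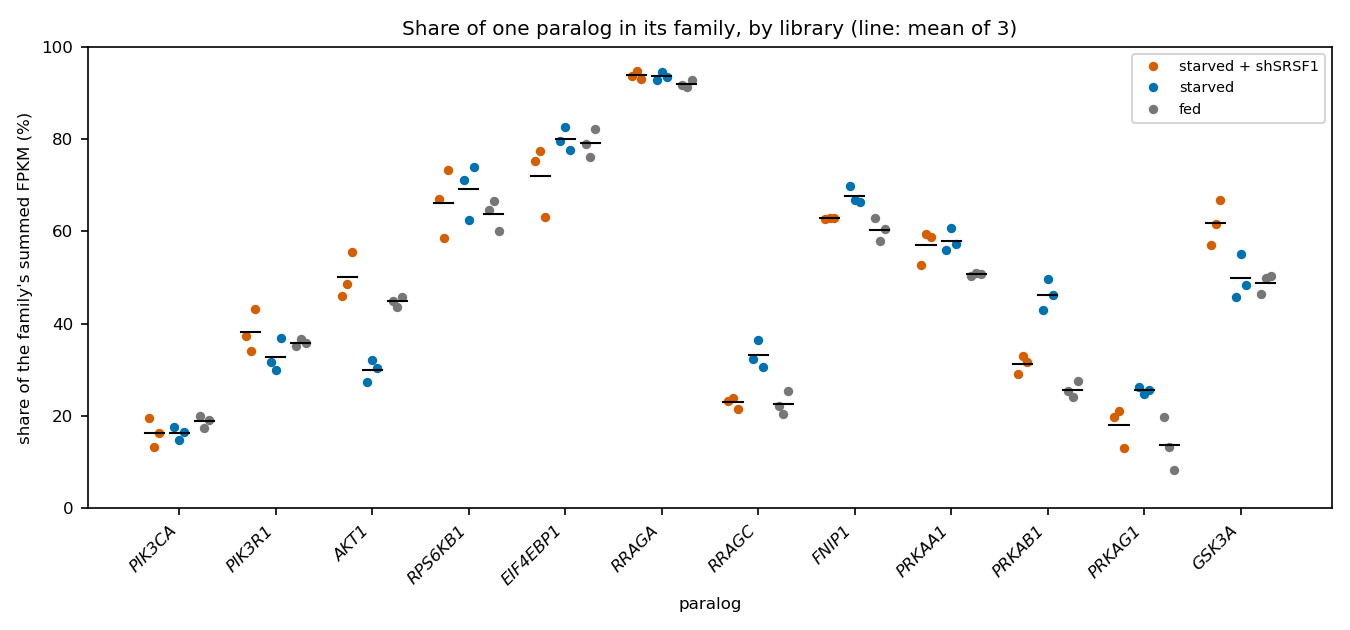
Share (%) of 1 named paralog in the summed FPKM of its family, per library (points) with the mean of 3 libraries (line), for 12 families and for knockdown (starved + shSRSF1), starved and fed cells from left to right. AKT1 is at 50.1%, 29.9% and 44.8% on average and PRKAB1 at 31.3%, 46.2% and 25.6%; PRKAG1 rests on a gene below the level filter.

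Set against fed cells, few members passed the threshold in knockdown cells, a comparison in which both serum and hairpin differ. The libraries of these groups did not overlap for 11 members higher and 7 lower in knockdown cells, beside 2239 and 2338 of all 11123 tested genes. Of 45 members 4 were called higher and 1 lower, against a background of 18.5% over all tested genes (9.27% higher and 9.23% lower). The higher ones were TSC1 (0.38 ± 0.10, adjusted p = 0.0252), CASTOR2 (0.29 ± 0.08, adjusted p = 0.0285), PRKAB1 (0.37 ± 0.10, adjusted p = 0.0289) and GSK3A (0.57 ± 0.15, adjusted p = 0.0288), and the lower one was PIK3R3 (-0.29 ± 0.08, adjusted p = 0.0328). GSK3A was at 6.01, 5.93 and 9.68 FPKM in knockdown cells and 4.15, 4.55 and 4.58 FPKM in fed cells, so knockdown replicate 3 stands apart. ZNF526, which overlaps 12.1% of the GSK3A span on the opposite strand, was called higher in the same comparison (0.30 ± 0.08, adjusted p = 0.0356). Without fed replicate 1 none of the 5 passed (adjusted p from 0.083 to 0.138), and each was lost also without other single libraries. TSC1 was lost without fed replicate 3 (adjusted p = 0.0936), and PRKAB1 and GSK3A without fed replicate 2 or 3 (from 0.0702 to 0.108). CASTOR2 was lost without fed replicate 2 or 3 or knockdown replicate 1 or 2 (from 0.0646 to 0.0938), and PIK3R3 without fed replicate 2 or knockdown replicate 1 or 2 (from 0.0624 to 0.108). For AKT1, LAMTOR5, PRKAA1 and PRKAB2 the fitted difference from fed cells was -0.01 to 0.02, with standard errors of 0.10 to 0.15, and a p above the threshold does not show that the levels are equal.

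A further 64 genes of the same pathways, from lists drawn up beside the members, gave 55 tested genes with 12 higher and 12 lower in starved against fed cells, and 14 higher and 8 lower in knockdown against starved cells. Those shares, 43.6% and 40.0%, are near or below the 42.8% and 46.4% of all tested genes, and nothing particular to the lists is read from their counts. Among 15 genes of amino acid sensing 6 were higher and 1 lower in starved cells, 46.7% called, and in knockdown against starved cells 2 were higher and 4 lower. The KICSTOR subunits, which tether GATOR1 to the lysosome, had the largest fold changes of this list. KPTN was at 3.45, 3.82 and 2.20 FPKM in knockdown cells, 8.90, 9.53 and 9.04 FPKM in starved cells, and 5.34, 3.22 and 3.80 FPKM in fed cells (1.01 ± 0.17, adjusted p = 0.00096; -1.31 ± 0.17, adjusted p = 0.000182 for knockdown against starved cells). ITFG2 was at 1.82, 2.54 and 2.43 FPKM in knockdown cells, 5.41, 5.13 and 5.44 FPKM in starved cells, and 2.64, 2.46 and 2.12 FPKM in fed cells (0.89 ± 0.10, adjusted p = 9.6e-05; -0.96 ± 0.10, adjusted p = 5.65e-05). The GATOR2 subunits SEH1L and WDR24, which act against GATOR1, were higher in starved than in fed cells by 0.61 ± 0.07 (adjusted p = 0.000124) and 0.48 ± 0.08 (adjusted p = 0.00103), and both fell in knockdown against starved cells, by 0.57 and 0.37.

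Among 14 further PI3K and AKT regulators 1 was higher and 5 lower in starved against fed cells, and 5 were higher and 2 lower in knockdown against starved cells. The share called in starved against fed cells was 42.9%, beside 42.8% of all tested genes. In knockdown against starved cells it was slightly above the 46.4% of all tested genes. Both comparisons use the same starved libraries, so the opposite directions are not independent. The catalytic subunit PIK3CD was at 3.64, 4.09 and 3.63 FPKM in knockdown cells, 1.63, 1.63 and 1.85 FPKM in starved cells, and 3.05, 2.94 and 3.18 FPKM in fed cells (-0.59 ± 0.08, adjusted p = 0.000276; 0.82 ± 0.08, adjusted p = 2.98e-05). PIK3C2B, a class II kinase, fell in starved against fed cells by 0.70 ± 0.09 (adjusted p = 0.000262) and was higher in knockdown than in starved cells by 0.60 ± 0.09 (adjusted p = 0.000601). PIK3C2A, of the same class, fell in knockdown against starved cells (-0.83 ± 0.20, adjusted p = 0.00753) and did not pass in starved against fed cells (adjusted p = 0.106).

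Among 13 mTOR and TSC partners 2 were higher and 4 lower in starved against fed cells, and 5 were higher and 1 lower in knockdown against starved cells. The share called was 46.2% in each, beside 42.8% and 46.4% of all tested genes. TTC5, which is listed with these genes but is known for directing the decay of tubulin mRNAs, had the largest change, at 3.48, 3.39 and 3.05 FPKM in knockdown cells, 0.634, 0.680 and 0.691 FPKM in starved cells, and 3.76, 4.49 and 4.45 FPKM in fed cells (-1.65 ± 0.09, adjusted p = 1.06e-06; 1.37 ± 0.09, adjusted p = 2.27e-06). MITF, a transcription factor of lysosomal genes and a relative of TFEB, fell in starved against fed cells by 0.71 ± 0.08 (adjusted p = 6.22e-05) and was higher in knockdown than in starved cells by 0.90 ± 0.08 (adjusted p = 1.38e-05). DDIT4, the stress-induced mTORC1 inhibitor REDD1, was at 129, 135 and 63.2 FPKM in knockdown cells, 60.1, 71.7 and 61.4 FPKM in starved cells, and 115, 120 and 123 FPKM in fed cells. It fell in starved against fed cells by 0.89 ± 0.24 (adjusted p = 0.012), and knockdown replicate 3 lay among the starved libraries, apart from the 2 other knockdown libraries (0.68 ± 0.24, adjusted p = 0.0364 for knockdown against starved cells). DDIT4L, its paralog, fell in starved against fed cells by 0.76 ± 0.09 (adjusted p = 0.000157).

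Of 13 genes upstream or downstream of AMPK 3 were higher and 2 lower in starved against fed cells, and 2 were higher and 1 lower in knockdown against starved cells. These are 38.5% and 23.1% called, beside 42.8% and 46.4% of all tested genes. PFKFB3, a glycolytic regulator that AMPK phosphorylates, was at 25.7, 25.3 and 22.2 FPKM in knockdown cells, 11.4, 13.2 and 12.5 FPKM in starved cells, and 13.6, 13.98 and 14.2 FPKM in fed cells (0.92 ± 0.09, adjusted p = 2.34e-05 for knockdown against starved cells; -0.15 ± 0.09, adjusted p = 0.177 for starved against fed cells). CAMKK2, the calcium-dependent AMPK kinase, fell in knockdown against starved cells by 0.50 ± 0.08 (adjusted p = 0.000469) and was higher in starved than in fed cells by 0.21 ± 0.08 (adjusted p = 0.0459). STRADB, a pseudokinase partner of STK11, fell in starved against fed cells by 0.58 ± 0.10 (adjusted p = 0.0012), and CAB39L, a scaffold of the same kinase complex, was higher there by 0.37 ± 0.10 (adjusted p = 0.0122).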

How the data were processed

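RNA-seq libraries of 293T cells were made with a SMARTER mRNA kit from 1.3 µg of RNA, per the labels' protocols. The deposited values are signal values: each library's whole read counts scaled by the authors with a single size factor, found by testing the values (tolerance 1e-06), although the deposited table calls them FPKM. Reads were recovered in 8 of 9 libraries. The submitters' processing notes name mm10, but the gene identifiers and positions are human; all 47 members overlap their GENCODE 29 position. Aligner and counter are not given in the sources used here. Libraries of 2 further knockdowns (6 samples) were not analysed here.

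FPKM was computed as the deposited value per kilobase of the table's gene length and per 1e6 of the mean normalized total, which keeps the authors' size factors. The 11123 genes reaching 1 FPKM in 3 libraries or more entered limma 3.58.1 (R 4.3.3) with a trended prior on log2(FPKM + 1), 3 group means and Benjamini-Hochberg adjustment over all tested genes, two-sided, threshold 0.05; fold changes on this scale understate those of low genes. The fit was tested on simulated data in which far fewer genes changed than were called here and no library stood apart. That test does not cover the conditions of these data. edgeR 4.0.16 on recovered reads, other pseudocounts, filters and scalings, a replicate block and leaving out each library were alternatives. Paralog shares used exact permutation tests. Library values are printed for the members with the 10 largest called changes of each comparison, those below the filter and other called members; of each further pathway list up to 4 called genes are named; some results are not reported here. The members and lists were chosen with earlier results of these data known.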

Additional observations from a re-analysis of the deposited data

How the results depend on the processing

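No call of a member turned direction under any alternative. Every alternative that tested them kept 11 of the 20 members called in starved against fed cells, 11 of the 18 in knockdown against starved cells and 0 of the 5 in knockdown against fed cells. Both counts of 11 include DEPDC5, whose direction the level filter fixed, so its being kept says nothing about robustness. Of the tested members not called above, 3, 6 and 5 passed under at least 1 alternative in these comparisons, in the same order. In knockdown against starved cells they were PDPK1, TSC1, MLST8, RPS6KB1, GSK3A and GSK3B. In starved against fed cells the 13 higher members became 6 on the TPM scale (PRKAG1, below the level filter otherwise, among them) and 8 with FPKM per library total, a scaling added after seeing the data, each beside 7 lower; leaving out 1 library gave 8 to 15. Over all genes the split of 2394 higher and 2369 lower became 1560 and 3094 on the TPM scale, which shifts the median of all genes by -0.10 on the log2 scale, and 1684 and 2893 per library total. In knockdown against starved cells 2500 and 2660 became 2936 and 1998 on the TPM scale and 2880 and 2077 per library total, and the members' 8 and 10 became 9 and 7 per library total; the 10 lower members became 6 with the 2 groups fitted alone and 5 to 13 on leaving out 1 library. A filter of 5 FPKM left 3119 of 4763 and 3416 of 5160 genes called, since fewer genes were tested. In knockdown against fed cells the 4 higher members became 1 and the 1 lower became 0 on the TPM scale and with the 2 groups alone, and 0 to 5 higher and 0 to 3 lower on leaving out 1 library, while the 2058 genes called ranged from 853 without fed replicate 1 to 2499 without knockdown replicate 3. edgeR on the recovered reads, without starved replicate 1, gave 9 higher and 7 lower, 7 and 8, and 4 and 1 members. Replicate numbers did not pair fed libraries with the others. Deviations of same-numbered libraries correlated at -0.56 to 0.35 between fed and starved cells and -0.42 to 0.03 between fed and knockdown cells. Between starved and knockdown cells same-numbered libraries correlated at 0.09, 0.62 and 0.37, and different-numbered ones at -0.46 to 0.22. Whether those libraries were handled in pairs is not given. With the replicate block the members called were 13 and 7, 8 and 9, and 4 and 1, over 4826, 5199 and 2049 genes. The block lost RHEB (adjusted p = 0.0571) and gained MAPKAP1 (0.038) in starved against fed cells, and lost PRKAG2 (0.0524) in knockdown against starved cells. Uncalled members took another sign in 97 values of 27 members. The cause of these changes was not tested beyond what is stated. With 3 libraries a group, small changes lie near the detection limit.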
